A study of Arabidopsis thaliana with 6 samples.

Results

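DFR and UGT78D1 are a pair of flavonoid genes of Arabidopsis thaliana that were described here on all 6 arrays of a study of the gapcp1gapcp2 double mutant. They were chosen by gene, each through a probe set that the platform's table assigns to 1 gene, and are 2 of the 13356 genes with such a probe set, on arrays with 22746 probe sets. DFR is AT5G42800 (probe set 249215_at) and UGT78D1 is AT1G30530 (probe set 261804_at). Whole seedlings of the Col-0 ecotype, 15 days old, were compared as wild type and as gapcp1gapcp2, which is mutated in both genes for glyceraldehyde-3-phosphate dehydrogenase of plastid glycolysis. Both genotypes had been given 0.75 µM of abscisic acid (ABA), the hormone plants make under drought and in maturing seeds, for 8 days, so no untreated level was measured. Both were grown at 22 °C with 16 h of light (100 µmol per m2 per s) and 8 h of dark. There were 3 arrays of each genotype, which the titles call biological replicates. The mutant alleles are not stated in the labels.

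Flavonoids are phenolic pigments and sunscreens built from phenylalanine through chalcones and dihydroflavonols. At the dihydroflavonols the pathway divides. Dihydroflavonol reductase, the product of DFR, leads toward anthocyanins and, in the seed coat, proanthocyanidins, while flavonol synthase leads to the flavonols kaempferol and quercetin. UGT78D1 encodes the glycosyltransferase that attaches rhamnose to these flavonols, a step at the end of the other branch. Seedlings are known to make more anthocyanin under stress and when sugar is plentiful, and DFR is widely used as a marker of that branch.

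The arrays were similar in overall level, with median intensities from 105.8 to 113.0 and 395 to 785 values below 0 on each. The genes GAPCP1 and GAPCP2 had 0 probe sets named in the table used here, so the genotype labels were not checked through the targeted genes. One free-text field, present on every array, speaks of embryos, where all the other labels name seedlings. Of 6 listed shoot markers 3 were measured, LHCB4.1, PSAE-1 and SBPASE. These and 5 of 6 listed root markers were above 0 on every array. Among the root markers were the root ER body gene PYK10 and the root hair gene EXPA7. The 4 seed storage and oil body markers were not analysed here. With 3 arrays a genotype, array number sets the precision of all values below.

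DFR had intensities of 236, 285 and 232 in wild type replicates 1, 2 and 3, and of 265, 197 and 180 in mutant replicates 1, 2 and 3. Of the mutant arrays, 2 lay below all wild type arrays and the other, replicate 1, lay above wild type replicates 1 and 3, so that the genotypes overlapped. The mean ± SD of 3 arrays was 251 ± 29.5 for wild type and 214 ± 44.9 for the mutant, and the mutant mean was 85.1% of that of wild type. The coefficient of variation was 11.7% in wild type and 21.0% in the mutant. The highest array was 1.59 times the lowest.

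UGT78D1 had intensities of 156, 189 and 154 in wild type replicates 1, 2 and 3, and of 135, 122 and 172 in mutant replicates 1, 2 and 3. Again 2 mutant arrays lay below all of wild type, but the exception was replicate 3, which was higher than wild type replicates 1 and 3. The mean ± SD of 3 arrays was 166 ± 19.7 for wild type and 143 ± 26.2 for the mutant, or 86.1% of wild type. The coefficient of variation was 11.8% and 18.3%. The highest array was 1.55 times the lowest.

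**Figure D1:**
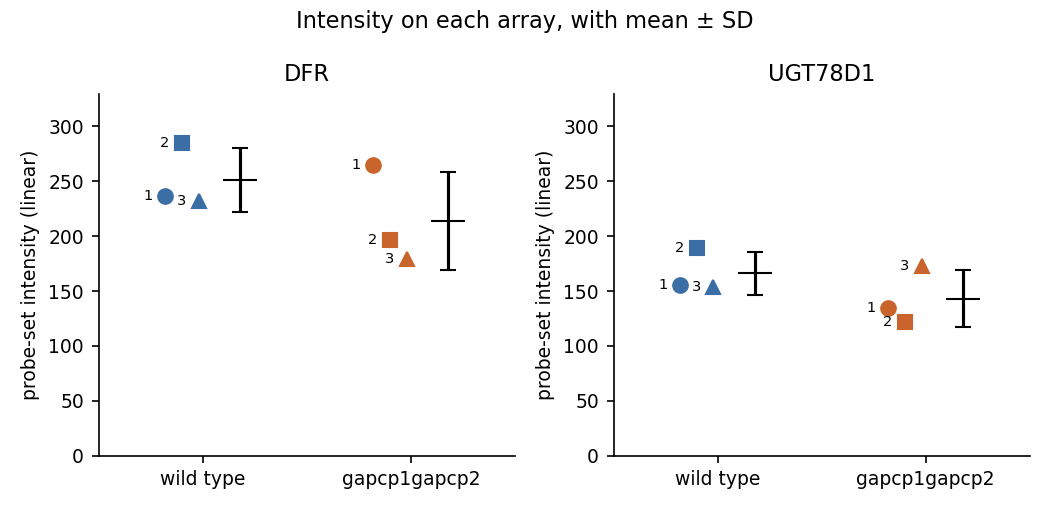
Probe-set intensity (linear, vertical axis) of DFR and UGT78D1 on the 3 wild type and 3 gapcp1gapcp2 arrays, with replicate numbers beside the points and the mean ± SD as bars. The genotypes overlap for both genes: mutant replicate 1 is the high mutant array for DFR (265) and mutant replicate 3 for UGT78D1 (172).

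The comparison asked whether the double mutant differed from wild type in either gene when both were grown with ABA, and neither gene passed the test. Differences were taken on the log2(intensity + 16) scale and tested with limma over 15922 probe sets. On that scale DFR differed by -0.23 ± 0.15 (SE), with a 95% interval from -0.58 to 0.12 (limma adjusted p = 1.00). In linear terms of the same scale the mutant was at 85.3% of wild type, with an interval from 66.9% to 108.6%. UGT78D1 differed by -0.20 ± 0.15 (SE), with an interval from -0.54 to 0.13 (limma adjusted p = 1.00), which is 86.9% of wild type, from 69.0% to 109.5%. Both intervals include no difference, and both also include mutant levels as low as their lower bounds. An exact permutation test of the 6 arrays, two-sided, gave p = 0.30 for each gene, where 3 arrays against 3 cannot give less than 0.10.

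Of these genes 0 were called, as were 0.00% of all probe sets tested by limma (271, or 1.70%, had an unadjusted p under 0.05, and neither gene was among them). The unadjusted limma p was 0.169 for DFR and 0.201 for UGT78D1. Over all tested probe sets the smallest adjusted limma p was 0.9999. Neither gene had groups that did not overlap, which 6.29% of tested probe sets had, and a difference below 0 was fitted for 51.3%. The absolute difference was larger than that of DFR for 10.2% of the tested probe sets and larger than that of UGT78D1 for 13.2%. The SD between arrays of one genotype was 0.22 for DFR and 0.20 for UGT78D1 on the log2 scale, against a median of 0.16 over the tested probe sets. The mutant difference therefore was about as large as the spread between arrays of one genotype for both genes. Between the genes, the log2 differences were 0.027 apart (DFR minus UGT78D1 -0.027 ± 0.25 SE, exact permutation p = 1.00).

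The values of both genes rested on different mutant arrays. Without mutant replicate 1, DFR had a log2 difference of -0.38 ± 0.14 (SE, limma adjusted p = 1.00), while UGT78D1 had -0.17 ± 0.17. Without mutant replicate 3 the order turned, and UGT78D1 had -0.33 ± 0.14 (SE, limma adjusted p = 1.00) while DFR had -0.12 ± 0.16. DFR without mutant replicate 1 and UGT78D1 without mutant replicate 3 had an unadjusted limma p under 0.05, which neither gene had with all 6 arrays. Each array left out there was the highest mutant array of that gene. Of 15922 probe sets, 260 had such a p without mutant replicate 1 and 388 without mutant replicate 3. The count was 271 with all 6 arrays. Without mutant replicate 2, DFR had -0.18 ± 0.18 and UGT78D1 had -0.11 ± 0.15. Wild type replicate 2 was the highest array for both genes, and without it the differences were -0.14 ± 0.17 for DFR and -0.12 ± 0.16 for UGT78D1. Leaving out wild type replicate 1 or 3 gave -0.27 and -0.28 for DFR, and -0.24 and -0.25 for UGT78D1. The fitted difference was below 0 for both genes with each of the 6 arrays left out. These fits share most of their arrays, so the kept sign is not separate support for a difference.

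**Figure D2:**
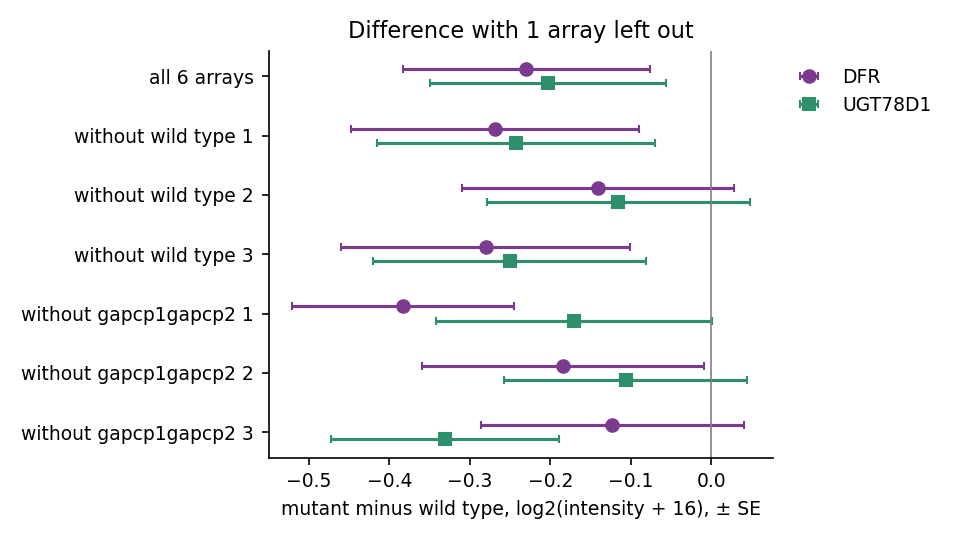
Log2 difference between gapcp1gapcp2 and wild type (horizontal axis, ± SE) for DFR and UGT78D1 with all 6 arrays and with each array left out. DFR is lowest without mutant replicate 1 (-0.38), and UGT78D1 without mutant replicate 3 (-0.33).

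The wild type arrays lay in the same order for both genes (replicates 2, 1 and 3 from high to low), and the mutant arrays did not. As log2 deviations from the mean of all 6 arrays, wild type replicate 2 was at 0.29 for DFR and 0.28 for UGT78D1. Wild type replicates 1 and 3 were near the mean, at 0.037 and 0.015 for DFR and at 0.022 and 0.00615 for UGT78D1. Mutant replicate 2 was low for both, at -0.21 for DFR and -0.29 for UGT78D1. Mutant replicate 1 was high for DFR (0.19) and low for UGT78D1 (-0.17), and mutant replicate 3 was low for DFR (-0.33) and high for UGT78D1 (0.16). Over the 6 arrays Pearson's r was 0.25 (exact permutation p = 0.632) and Spearman's rho was 0.26 (exact permutation p = 0.658). Without the arrays farthest from the median of DFR, mutant replicate 3 and wild type replicate 2, r was 0.46.

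This relation was not stable over arrays. With 1 array left out, r ranged from -0.25 without wild type replicate 2 to 0.74 without mutant replicate 3. It was -0.082 without mutant replicate 2 and 0.48 without mutant replicate 1. Taken as deviations from each genotype's own mean, r was -0.057. The sign of r thus turned with the array left out.

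**Figure D3:**
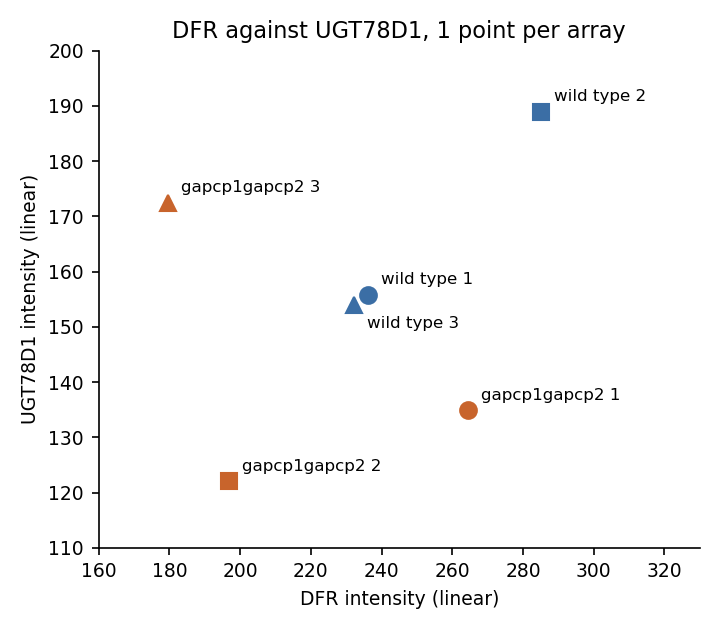
Intensity of UGT78D1 (vertical axis, linear) against DFR (horizontal axis, linear), with 1 point per array and axes that do not start at 0. Wild type 2 is highest for both genes, while gapcp1gapcp2 1 and gapcp1gapcp2 3 lie at opposite corners (r = 0.25 over the 6 arrays on the log2 scale).

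The other genes of the flavonoid lists did not differ in one direction. Of 64 genes in 6 lists of the pathway, from phenylalanine ammonia-lyase to regulators, 11 had a probe set with 1 named gene and 8 of these, DFR and UGT78D1 included, passed the filter on low values. Of the 6 tested genes other than DFR and UGT78D1, 0 passed the test, 4 were fitted above 0 and 2 below, and the median log2 difference was 0.048, against -0.0032 over all tested probe sets. UGT80B1, a sterol glucosyltransferase gene on the proanthocyanidin list, was among those fitted below 0. With DFR and UGT78D1 counted, 4 of the 8 were fitted above 0 and 4 below, with a median of -0.047. The lists of general phenylpropanoid enzymes and of flavonoid regulators were not analysed here.

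On the early part of the pathway, CHIL, which assists chalcone synthase, had a log2 difference of 0.11 ± 0.13 (SE), with means ± SD of 253 ± 38.1 for wild type and 272 ± 21.0 for the mutant. Its values were 297, 225 and 238 in wild type and 251, 293 and 272 in the mutant, so that the genotypes overlapped. Wild type replicate 2 was its lowest array, where DFR and UGT78D1 were highest.

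On the anthocyanin branch, AT4G14090, which the table used here gives no symbol and which was listed under anthocyanin synthesis and decoration, had 62.8, 81.2 and 73.6 in wild type and 75.3, 61.7 and 57.7 in the mutant. As for DFR, 2 mutant arrays lay below all of wild type and replicate 1 did not. Here, though, mutant replicate 2 (61.7) was only just below wild type replicate 1 (62.8). The log2 difference of AT4G14090 was -0.13 ± 0.16 (SE). UGT79B1, which extends the sugar chain of anthocyanins, had 0.079 ± 0.13, with 86.7 to 115 in wild type and 103 to 113 in the mutant. 5MAT, for an anthocyanin malonyltransferase, was below the filter, with intensities of 27.3 to 37.4.

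On the flavonol branch, UGT78D2, a relative of UGT78D1 that attaches glucose to flavonols and anthocyanins, had a mean of 206 ± 16.5 (SD, n = 3) in wild type, and in the mutant it had 208 ± 13.6. The log2 difference was 0.016 ± 0.11 (SE), and its 95% interval ran from -0.23 to 0.26. AT1G06000, listed under flavonol synthesis and decoration and without a symbol in the table, had 226, 129 and 153 in wild type and 165, 178 and 187 in the mutant, a log2 difference of 0.089 ± 0.18 (SE). UGT78D3, a further relative in the UGT78D group, was below the filter, with values from -16.1 to 36.2. Of the 3 tested flavonol genes only UGT78D1 was fitted below 0 with all 6 arrays, while UGT78D2 and AT1G06000 turned in sign with some arrays left out. Whether UGT78D1 differed from them was not tested.

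On the proanthocyanidin list, UGT80B1, a sterol glucosyltransferase gene whose loss pales the seed coat, had a log2 difference of -0.11 ± 0.12 (SE). BAN, for the anthocyanidin reductase of the seed coat, was below the filter, with intensities of 8.17 to 38.0.

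**Figure D4:**
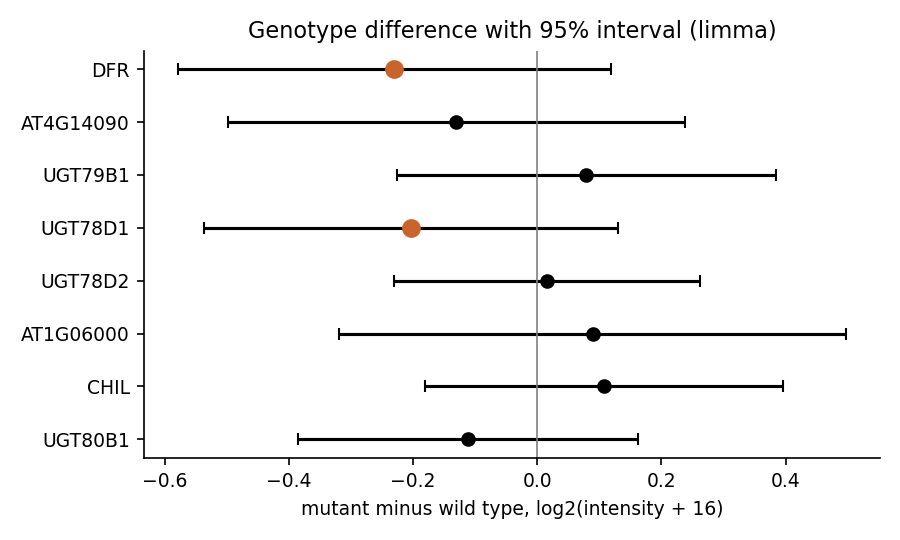
Log2 difference between gapcp1gapcp2 and wild type (horizontal axis) with its 95% limma interval for the 8 tested genes of the flavonoid lists, with DFR and UGT78D1 as larger coloured points. All 8 intervals include 0.

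Among these genes the array pattern nearest to that of DFR was the one of AT4G14090. Both were highest in wild type replicate 2 and mutant replicate 1 and lowest in mutant replicate 3. Wild type replicate 2 and mutant replicate 1 also deviated alike over all tested probe sets (r = 0.60 of deviations from genotype means). The likeness of those arrays was thus seen over the tested probe sets and not only in DFR and AT4G14090. Its part in the relation of DFR and AT4G14090 was not tested. Between DFR and AT4G14090 Pearson's r was 0.91 (exact permutation p = 0.00694, 0.118 after Benjamini-Hochberg adjustment over 17 relations). Spearman's rho was 0.94 (exact permutation p = 0.0167, adjusted 0.283). The relation thus failed the correction. Without mutant replicate 3 and wild type replicate 2, r was 0.74. With 1 array left out r ranged from 0.85 to 0.98, with an unadjusted exact permutation p of 0.0833 without wild type replicate 2 and of 0.050 without mutant replicate 3. As deviations from genotype means r was 0.89. Of the 8760 other probe sets with 1 gene that passed the filter, 0.708% had a higher r with DFR than AT4G14090 had. The r of UGT78D1 with AT4G14090 was 0.25 (exact permutation p = 0.622, adjusted 0.767), and ran from -0.29 without wild type replicate 2 to 0.63 without mutant replicate 3. The difference between these values of r was not tested. Over the other tested genes of the flavonoid lists r with DFR ran from -0.64 for CHIL to 0.61 for UGT78D2 (exact permutation p = 0.183 and 0.203). The r with UGT78D1 ran from -0.51 for CHIL to 0.45 for UGT80B1 (exact permutation p = 0.310 and 0.360). With 1 array left out r with DFR ran from -0.82 to -0.41 for CHIL and from 0.41 to 0.82 for UGT78D2. That with UGT78D1 ran from -0.65 without wild type replicate 1 to -0.16 without wild type replicate 2 for CHIL, and from -0.42 without mutant replicate 2 to 0.62 without mutant replicate 1 for UGT80B1.

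Root marker levels varied between arrays of one genotype, and they are given here beside DFR. The summed intensity of the 5 measured root markers was 8254, 5697 and 6347 in wild type replicates 1, 2 and 3, and 5295, 7844 and 6659 in mutant replicates 1, 2 and 3. It was lowest in mutant replicate 1 and wild type replicate 2, the arrays with the most DFR. Each of the 5 markers was highest in wild type replicate 1 and mutant replicate 2 within its genotype, so their values of r are not independent. All 5 markers had an r below 0 with DFR (-0.74 to -0.47), and their mean log2 level had -0.62 (exact permutation p = 0.200, adjusted 0.708). The share of all probe sets with an r below 0 was not computed. All 5 markers were also below 0 with UGT78D1 (-0.43 to -0.11), with which their mean had -0.35 (exact permutation p = 0.517, adjusted 0.767). With 1 array left out the r of this mean ran from -0.84 to -0.48 with DFR, and with UGT78D1 from -0.83 without mutant replicate 1 to 0.077 without mutant replicate 2. The summed intensity of the 3 measured shoot markers lay between 21023 and 23164 in wild type and between 21051 and 22619 in the mutant. The mean log2 level of these shoot markers had an r of 0.63 with DFR (exact permutation p = 0.208, adjusted 0.708) and of -0.017 with UGT78D1 (exact permutation p = 0.969, adjusted 0.969). The shoot markers differed among themselves. With DFR, r was -0.0049 for LHCB4.1, 0.37 for PSAE-1 and 0.85 for SBPASE. With UGT78D1 it was -0.36, -0.15 and 0.33 in the same order. Of the root and shoot markers 0 were at 0. The part of the organs' shares in the DFR and UGT78D1 values was not tested, and in RNA of whole seedlings fewer cells of a kind cannot be told apart from less RNA per cell.

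**Figure D5:**
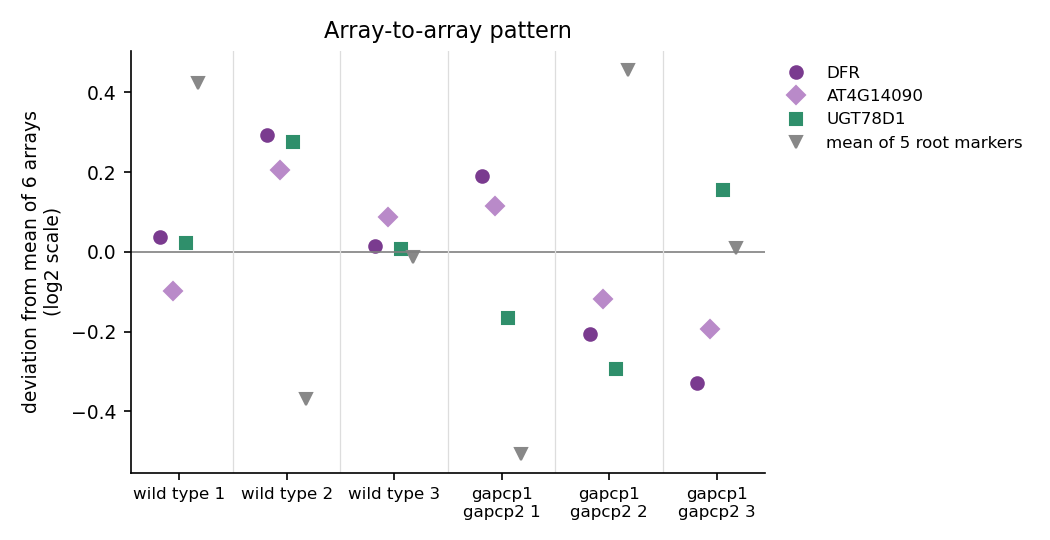
Deviation of each array from the mean of the 6 arrays (vertical axis, log2 scale) for DFR, AT4G14090, UGT78D1 and the mean of 5 root markers. DFR and AT4G14090 are above 0 together in wild type 2 and gapcp1gapcp2 1, where the root markers are at -0.37 and -0.51, and in wild type 3 (0.015 and 0.087), where the root markers are at -0.013.

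The genes most like each member over the 6 arrays were taken by Pearson's r among these 8760 probe sets, as a ranking with no test. For DFR they were AT1G09620 (r = 0.99), AT5G03660 (0.98) and AT1G02960 (0.97), none of which has a symbol in the table. Their range was narrower than that of DFR: AT1G09620 had 672 to 721 and AT5G03660 had 459 to 503, and AT1G02960 had 106 to 141. For UGT78D1 they were AT5G50020, AT1G50660 and AT3G13780 (r = 0.98 for each), also without a symbol. AT5G50020 had 117, 142 and 110 in wild type and 83.3, 69.1 and 134 in the mutant, high in mutant replicate 3 as UGT78D1 was. AT3G13780 had 38.7 to 74.3 and AT1G50660 had 210 to 280. The points of each such r share the same 6 arrays, and the adjusted limma p of all 6 genes was 1.00.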

How the data were processed

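RNA of whole seedlings was hybridised to Affymetrix arrays, with groups and replicate numbers from the titles. The authors deposited probe-set intensities on a linear scale. The submitters' processing notes name GCOS, while summarisation and scaling are not stated. Values below 0 (3919 in all) show that something had been subtracted. Of 22746 probe sets 13513 had 1 gene in the platform's table, 503 had several and 8730 were unnamed here, and 13436 of the first matched a RefSeq table of TAIR10.1, used for names only. Intensities below 0 were raised to 0, transformed as log2(value + 16) and not normalized further, which understates changes of dim genes. The lowest 30% of probe sets by mean were left out. The genotypes were compared with limma 3.58.1 in R 4.3.3 (trend, two-sided, Benjamini-Hochberg, threshold 0.05). The fit was tested on simulated arrays that were drawn independently of each other. The changes put into them were larger than those fitted for DFR and UGT78D1, so differences of that size were not covered. Named were DFR, UGT78D1, each listed pathway gene with a probe set of 1 gene, and the 3 genes most like each member. The correlations with pathway genes and with root and shoot markers were chosen after the values were seen, and members and lists with earlier results of these data known. The other settings of the AT4G14090 relation were also chosen after seeing the data. Alternatives were filters of 0 and 50%, quantile normalization, centring, pseudocounts of 1 and 64, other variance models, weighted arrays, a block for the replicate number, a generalized log2 without the floor, and leaving out each array. Deviations from genotype means had an r below 0 between same-numbered arrays (-0.59, -0.49 and -0.13), so the numbers were not used as pairs. Such deviations sum to 0 within a genotype, so these values of r are not independent. Over the tested probe sets, wild type replicate 2 deviated like mutant replicate 1 (r = 0.60), and wild type replicate 1 like mutant replicate 2 (0.39). The other pairs with different numbers had r from -0.12 to 0.23. Figures were drawn with matplotlib 3.10.9.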

Additional observations from a re-analysis of the deposited data

How the results depend on the processing

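DFR and UGT78D1 kept a difference below 0 and stayed short of the adjusted threshold under all 18 alternatives. The alternatives share most or all of the arrays, so the kept sign is not separate support for a difference. With 1 array left out the log2 difference ranged from -0.38 to -0.12 for DFR and from -0.33 to -0.11 for UGT78D1. Under the other 12 it ranged from -0.27 to -0.19 and from -0.22 to -0.13, and array weights, which gave -0.27 for DFR and -0.13 for UGT78D1, moved the latter by over 1.5 times. The correlation between them turned in sign without wild type replicate 2 or mutant replicate 2 (range -0.25 to 0.74 with 1 array left out) and as deviations from genotype means (-0.057), and was 0.14 to 0.29 under the other scalings. The correlation of DFR with AT4G14090 had an exact permutation p of 0.0833 without wild type replicate 2 and 0.050 without mutant replicate 3. The count of all probe sets past the threshold was 0 throughout, and that at an unadjusted p under 0.05 went from 271 to 619 with no filter, 115 with the lowest 50% left out and 136 with the replicate block, and ranged from 247 to 388 with 1 array left out. The replicate block changed no call, with the same differences and limma p of 0.216 for DFR and 0.290 for UGT78D1, and 0 of 6 arrays correlated best with its own number. With 1 array left out the log2 difference turned in sign for UGT78D2 (-0.037 to 0.070), UGT79B1 (-0.021 to 0.15) and AT1G06000 (-0.069 to 0.30), and kept it for CHIL (0.033 to 0.22), AT4G14090 (-0.22 to -0.060) and UGT80B1 (-0.18 to -0.015). The cause was not tested. With the lowest 50% left out AT4G14090 and UGT79B1 were not among the probe sets tested. Signals near background limit the dim genes, since 1.74% to 3.45% of values per array were below 0.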
